A study of Mus musculus with 11 samples.

Results

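The genes described here are the Wnt ligands, their Frizzled receptors, the R-spondins and 8 partners of the same pathway, measured in fibroblasts sorted from mouse back skin and from skin wounds. The set was picked with earlier results of these data known, and its members were taken by gene symbol and not by a measured value: every row named as a numbered Wnt, Fzd or Rspo gene, together with the co-receptors Lrp5, Lrp6, Ror1 and Ror2, the R-spondin receptor Lgr4, the transcription factors Lef1 and Tcf7 and the feedback inhibitor Axin2. This gave 41 of the 47643 gene symbols in the table, of which 19 were Wnt ligands, 10 Frizzled receptors and 4 R-spondins. The cells came from normal unwounded back skin (NS) and from full-thickness excisional wounds 5 days after injury (5dw) of 9- to 12-week-old mice of mixed CD-1 and C57Bl/6 strain. Act mice (labelled K14-Act) carry the INHBA gene, which encodes the activin A subunit, under the keratin 14 promoter, a promoter known from basal keratinocytes and not from fibroblasts, and wild-type (WT) littermates were the controls. The groups were WT NS (n = 3 libraries), Act NS (n = 3), WT 5dw (n = 3) and Act 5dw (n = 2; the library numbered 2 was dropped by the study). Live cells positive for CD140a (the PDGF receptor alpha, a fibroblast surface protein) and negative for CD45, CD3, CD11b and F4/80 were collected, and RNA pooled from several animals made 1 library. The methods of the paper do not name CD3 among the negative markers, so its place in the gate is uncertain. Values are RPKM, read counts divided by transcript length and by the mapped reads of the library. This corrects for length and depth, so levels of genes can be set side by side within a library. It does not correct for a shift of most genes between libraries, for which another scaling is used below.

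Wnt proteins are secreted, lipid-modified ligands that bind Frizzled receptors. With the co-receptors Lrp5 and Lrp6 they stabilise beta-catenin, which then acts with Lef1, Tcf7 and their relatives on target genes such as Axin2, itself an inhibitor of the pathway; with Ror1 and Ror2, ligands such as Wnt5a act largely without beta-catenin. R-spondins bind Lgr receptors and keep Frizzled receptors at the cell surface, which raises the response to a Wnt. In skin the pathway is known for its part in the hair cycle, in which the dermal papilla, a fibroblast cluster at the base of the follicle, both sends and receives these signals.

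Mapped reads recovered from the RPKM steps ran from 18649321 to 39702138 per library. Pdgfra, which encodes the sort marker CD140a, lay between 29.6 and 65.3 RPKM in all 11 libraries, and Ptprc, which encodes CD45, did not exceed 0.0498 RPKM. Krt14, a basal keratinocyte keratin, was nevertheless found at 192 to 493 RPKM in NS and 57.8 to 528 RPKM in 5dw, so the sorted RNA held keratinocyte transcripts. The summed level of 14 keratinocyte markers was 1284 to 4860.2 RPKM in NS and 176 to 1548 RPKM in 5dw, the last being WT 5dw 3, and the mean of 13 of the 14 was higher in NS than in 5dw. Inhba, the row of the mouse gene, read 6.75, 6.93 and 3.399 RPKM in WT NS, 36.3, 59.1 and 91.2 in Act NS, 20.6, 15.8 and 23.98 in WT wounds and 26.2 and 50.2 in Act wounds, and the transcript of the transgene itself was not analysed here. Cd3e was at 2.94 to 33.9 RPKM in NS and 55.5 to 105 RPKM in 5dw, and whether CD3 was in the negative gate is uncertain. The 2 tissues also differed in the RNA input per library, which cannot be told apart from the tissue.

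Promoter sequence is shown for Rspo1 and Wnt9a, the members with the largest fall and the largest rise in wound fibroblasts on the log2(RPKM + 0.5) scale used below, and for the pathway's own target Axin2. Each is the 250 bases upstream of the annotated start from RefSeq (build GRCm38.p6), written 5′ to 3′ on the gene's strand, with CG dinucleotides in capitals.
Rspo1 (chr4:124986180-124986429, plus strand): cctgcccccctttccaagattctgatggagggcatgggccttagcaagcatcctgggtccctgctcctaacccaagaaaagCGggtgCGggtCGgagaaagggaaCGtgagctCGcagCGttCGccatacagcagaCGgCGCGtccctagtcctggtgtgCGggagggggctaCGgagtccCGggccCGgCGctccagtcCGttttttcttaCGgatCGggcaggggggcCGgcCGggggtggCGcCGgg
Wnt9a (chr11:59306680-59306929, plus strand): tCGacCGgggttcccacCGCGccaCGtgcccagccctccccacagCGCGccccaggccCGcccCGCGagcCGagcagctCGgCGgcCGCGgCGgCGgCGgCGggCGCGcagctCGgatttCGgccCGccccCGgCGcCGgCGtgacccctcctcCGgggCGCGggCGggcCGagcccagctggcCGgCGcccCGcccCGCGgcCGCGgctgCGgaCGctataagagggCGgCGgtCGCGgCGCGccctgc
Axin2 (chr11:108920099-108920348, plus strand): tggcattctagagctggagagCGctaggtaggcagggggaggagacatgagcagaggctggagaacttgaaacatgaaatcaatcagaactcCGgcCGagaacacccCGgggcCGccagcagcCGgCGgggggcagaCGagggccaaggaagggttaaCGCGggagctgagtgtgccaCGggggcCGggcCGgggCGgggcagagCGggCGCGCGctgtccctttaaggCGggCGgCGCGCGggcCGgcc
The 3 windows held 22, 48 and 24 CG dinucleotides. Windows were found for 29 of the 41 members (36 windows), with a median of 22 CG dinucleotides and 68.6% G or C, against medians of 6 and 52.4% over all 32851 mouse windows of the same length. The feature is shared by members that rose and members that fell.

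The same windows were searched on both strands for the core of the TCF/LEF motif (CTTTGAA or CTTTGAT), the AP-1 motif (TGACTCA) and the TATA motif (TATAAA). None of the 3 windows above held any of them. A TCF/LEF match was found in 2 of the 36 member windows, those of Wnt11 and Wnt5b, against 7.479% of all windows. An AP-1 match was found in 2 of the 36, of Ror2 and Wnt5b, against 4.463% of all windows, and a TATA match in 4 of the 36, of Fzd1, Lef1, Tcf7 and Wnt11, against 12.368%. Wnt11 is the only member window to hold both TCF/LEF and TATA letters, which begin at positions -51 and -29 from the start and are in capitals here.
Wnt11 (chr7:98834862-98835111, plus strand): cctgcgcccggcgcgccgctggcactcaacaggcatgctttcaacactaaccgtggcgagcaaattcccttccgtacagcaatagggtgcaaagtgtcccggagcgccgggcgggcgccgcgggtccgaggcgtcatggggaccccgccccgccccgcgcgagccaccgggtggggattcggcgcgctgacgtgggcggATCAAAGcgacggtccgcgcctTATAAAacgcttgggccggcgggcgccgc
The TCF/LEF letters are shown as the reverse complement, since the match was on the other strand. A match is a run of letters and was not tested as a binding site.

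Members of all 3 families differed between fibroblasts of wounds and of normal skin, in WT and in Act mice. Of the 41 members, 31 reached 1 RPKM in at least 2 libraries and were tested with limma on log2(RPKM + 0.5), on which scale every log2 fold change (log2FC) below is given and by which the change of low genes is understated. In WT 5dw vs WT NS, 18 of the 31 members were called lower (58.1%, against 48.8% of all 11979 tested genes) and 3 were called higher (9.68%, against 9.45%). In Act 5dw vs Act NS, 18 members were called lower (58.1%, against 36.5% of all genes) and 4 higher (12.9%, against 9.04%). The 2 comparisons share no library, and 16 members were called lower in both (51.6%, against 34.1% of all genes).

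Most genes shifted down in the wound libraries on this scale, with a median log2FC over all tested genes of -0.40 in WT and -0.31 in Act. Dividing each library by its median ratio to the others removed that shift. Under this median-ratio scaling 13 members were lower in WT wounds (41.9%, against 22.2% of all genes) and 6 higher (19.4%, against 22.4%), and in Act wounds 14 were lower (45.2%, against 20.8%) and 5 higher (16.1%, against 19.9%). The share of members called higher lay near or below that of all genes on either scale and is no result about the members as a group. Under both scalings and in both genotypes 12 members fell, namely Axin2, Fzd4, Fzd7, Fzd10, Lef1, Rspo1, Tcf7, Wnt3, Wnt5a, Wnt7b, Wnt10a and Wnt11 (38.7%, against 17% of all genes), and 3 rose, namely Fzd5, Wnt2b and Wnt9a (9.68%, against 7.4%). Of these members, Fzd10, Lef1, Rspo1, Tcf7, Wnt3, Wnt7b and Wnt10a reached 1 RPKM in no wound library, and Wnt2b in no NS library. They passed the filter through 1 tissue alone, and the same filter was used for all genes. The order of the changes depended on the scale. On log2(RPKM + 0.5) Rspo1 was lowest and Wnt9a highest in both genotypes. With limma-voom on the recovered reads, Wnt2b was above Wnt9a in WT (2.47 and 2.20) and in Act (2.37 and 1.69), Wnt3 was below Rspo1 in Act (-5.19 and -4.31), and Lef1 and Rspo1 were level in WT (-5.68 and -5.67). The 5 wound and 6 normal skin libraries did not overlap for 19 of the 31 members (61.3%, against 47.3% of all genes). In bulk RNA, fewer cells of a type and less RNA per cell cannot be told apart.

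**Figure D1:**
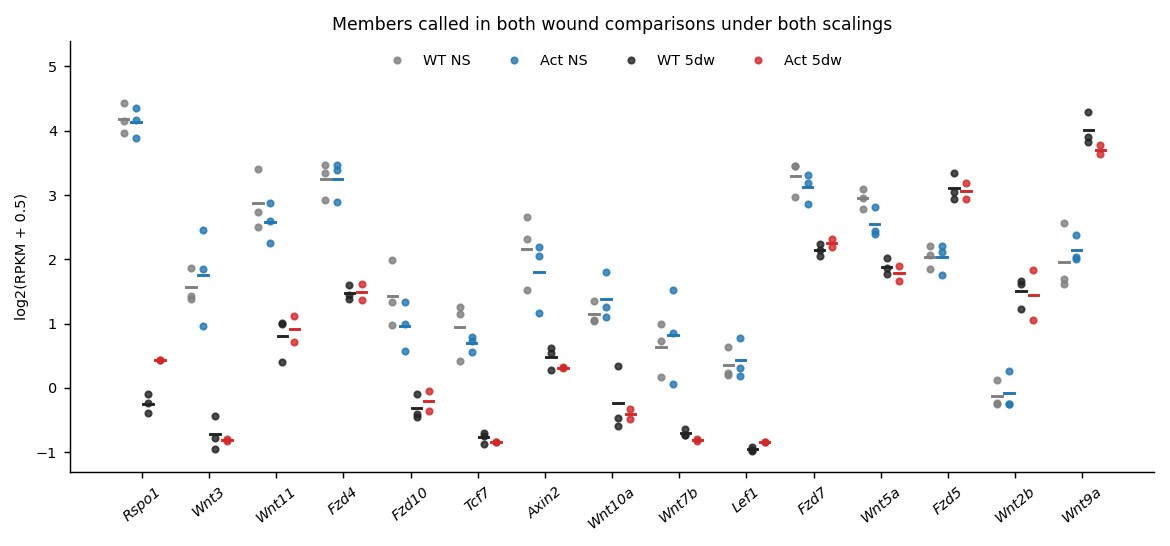
Level of the 15 members called in both wound comparisons under both scalings, as log2(RPKM + 0.5); each point is 1 library, the bar is the group mean, and genes are ordered by log2FC in WT. For all 15, chosen by their calls, the wound libraries and the normal skin libraries do not overlap, and on this scale Rspo1 drops furthest, from 14.3 or more to 0.855 RPKM or less.

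On the log2(RPKM + 0.5) scale the largest change was that of an R-spondin. Rspo1, an amplifier of the Wnt response (chr4:124986430-125009099, plus strand), read 21.1, 15.1 and 17.2 RPKM in WT NS, 17.4, 14.3 and 19.97 in Act NS, 0.2599, 0.4395 and 0.346 in WT wounds and 0.855 and 0.846 in Act wounds. The lowest normal skin library had 14.3 RPKM and the highest wound library 0.855 RPKM, and the 2 Act wound libraries lay above the 3 WT ones. In reads, this was 4934 over the 6 NS libraries and 155 over the 5 wound libraries. Rspo1 fell with a log2FC of -4.42 ± 0.16 (SE; adjusted p = 1.84e-07) in WT and -3.70 ± 0.17 (SE; adjusted p = 1.02e-06) in Act. With median-ratio scaling the values were -4.09 and -3.43.

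Rspo3 and Rspo2, R-spondins of the same kind of action, had another pattern over the libraries. Rspo3 read 1.69, 5.31 and 1.85 RPKM in WT NS, 0.698, 4.89 and 2.82 in Act NS, 1.58, 1.53 and 1.24 in WT wounds and 2.52 and 2.02 in Act wounds. It was highest in WT NS 2, Act NS 2 and Act NS 3, the tissues overlapped in Act and over all libraries but not in WT, and it was called in neither comparison, except lower in WT without both NS libraries numbered 1 (-0.93, adjusted p = 0.0457). Of its 31-base words, 12.2% are shared with other genes, the gene model Gm48159 being the largest sharer. Rspo2 read 0.501, 2.63 and 0.476 RPKM in WT NS, 0.44, 1.96 and 1.09 in Act NS, 0.174, 0.147 and 0.163 in WT wounds and 0.483 and 0.305 in Act wounds. The same 3 normal skin libraries were highest for Rspo2, which was called lower in WT wounds (log2FC -1.13 ± 0.44 SE, adjusted p = 0.0443) but not with median-ratio scaling (-0.94, adjusted p = 0.0968), unless the replicate number was a block (-0.94, adjusted p = 0.0406). The call was lost without WT NS 2 (-0.58, adjusted p = 0.16) and without any 1 of Act NS 3, the 3 WT 5dw and the 2 Act 5dw libraries (-1.15 to -1.12, adjusted p = 0.0533 to 0.0925). In Act wounds Rspo2 had a log2FC of -0.79 ± 0.49 (SE; adjusted p = 0.207).

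Hhip, a hedgehog-binding protein on the list of dermal papilla markers, was also highest in those 3 libraries, at 6.90, 5.94 and 3.36 RPKM, against 1.15 to 1.64 RPKM in the other NS libraries. Hhip was singled out from the 10 dermal papilla markers after its values were seen. The sum of the 10 was 88.2, 61.6 and 85.1 RPKM there and 47.2, 71.8 and 55.2 RPKM in WT NS 1, WT NS 3 and Act NS 1. Crabp1, a retinoic acid binding protein and the most abundant of the 10, made up much of it, and without Crabp1, left out after its values were seen, the sum was 49.4, 34.8 and 33.6 RPKM in those 3 libraries and 22.3, 32.3 and 23.2 RPKM in the others. Over the 10 dermal papilla markers the sum was 47.2 to 88.2 RPKM in NS and 50.1 to 120.0 RPKM in 5dw. Of the 10, 6 were higher in every NS library than in any wound library. Among all tested genes 47.3% did not overlap between the tissues, in either direction. The mean of 9 of the 10 markers was higher in NS. Of the 6 tested, 5 fell in WT (83.3%, against 22.2% of all genes) and 3 in Act (50%, against 20.8%) under both scalings. Crabp1 was the exception, with 24.96 to 51.5 RPKM in NS and 45.3 to 119 RPKM in 5dw, and without it the sum was 22.3 to 49.4 RPKM in NS, 0.591 to 0.907 RPKM in WT wounds and 4.83 and 2.16 RPKM in Act wounds. Whether a difference in dermal papilla cells between libraries bears on the R-spondins was not tested.

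The summed R-spondin level was 19.5 to 24.8 RPKM in NS and 1.82 to 3.98 RPKM in 5dw. Rspo1 made up 64.0 to 89.3% of it in normal skin and 12.8 to 24.6% in wounds, where Rspo3 led in all 5 libraries with 58.8 to 77.6%. Rspo4 did not reach the test. It had 0.543 to 1.15 RPKM in NS and 0.0213 to 0.263 RPKM in 5dw.

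**Figure D2:**
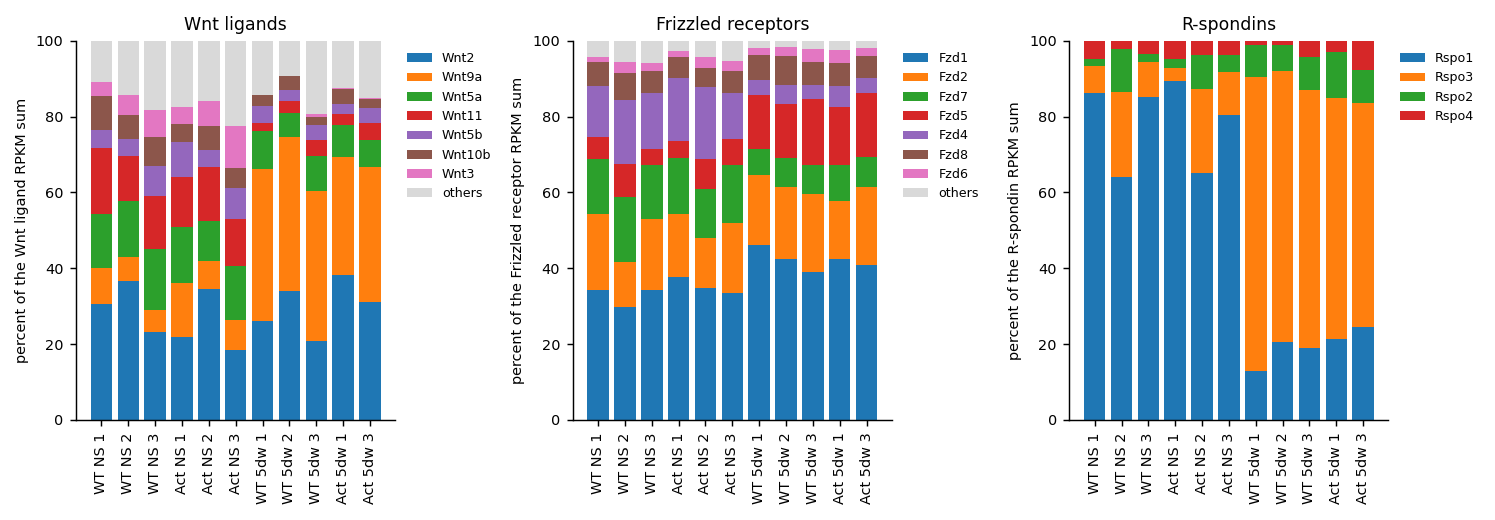
Make-up of each class in every library, as the percent of the summed RPKM of all Wnt ligands (left), Frizzled receptors (middle) and R-spondins (right); each bar is 1 library and the colours are genes. Wnt9a takes 31.1 to 40.6% of the Wnt sum in wounds against 5.72 to 14.5% in normal skin, and Rspo3 replaces Rspo1 as the leading R-spondin.

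Among the Wnt ligands, the sum over all 19 genes overlapped between tissues (32.4 to 57.3 RPKM in NS and 34.4 to 46.8 RPKM in 5dw). The percent of that sum held by 11 of the 19 ligands did not overlap. The 11 include Wnt6, which was below the test threshold. The percents are parts of 1 sum, so a rise of Wnt9a lowers the others. No matching share was worked out for all genes, of which 47.3% of those tested did not overlap in RPKM itself. The share of Wnt2 overlapped, with 18.5 to 36.6% in NS and 20.7 to 38.2% in 5dw. Wnt2 was the highest Wnt ligand in all 6 normal skin libraries and Wnt9a in 4 of the 5 wound libraries, Act 5dw 1 being the exception. Wnt9a (chr11:59306928-59333552, plus strand) read 5.43, 2.75 and 2.56 RPKM in WT NS, 4.68, 3.52 and 3.596 in Act NS, 14.5, 18.98 and 13.7 in WT wounds and 11.9 and 13.2 in Act wounds. Every wound library was above every normal skin library. Wnt9a rose with a log2FC of 2.04 ± 0.23 (SE; adjusted p = 6.35e-05) in WT and 1.57 ± 0.26 (SE; adjusted p = 9.36e-04) in Act, and with median-ratio scaling 2.46 and 1.90. Its neighbour Wnt3a, which starts on the other strand of chromosome 11 with 16175 bases between the genes, did not exceed 0.159 RPKM.

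Wnt2b, a close relative of Wnt2, read 0.585, 0.339 and 0.355 RPKM in WT NS, 0.3401, 0.701 and 0.341 in Act NS, 2.56, 1.84 and 2.68 in WT wounds and 1.58 and 3.08 in Act wounds. All wound libraries were above all normal skin libraries. Wnt2b rose with a log2FC of 1.62 ± 0.23 (SE; adjusted p = 2.41e-04) in WT and 1.53 ± 0.26 (SE; adjusted p = 0.00101) in Act. Wnt2 itself, a ligand of the beta-catenin branch, read 17.6, 15.9 and 10.4 RPKM in WT NS, 7.04, 16.4 and 8.42 in Act NS, 9.47, 15.97 and 7.13 in WT wounds and 14.7 and 11.6 in Act wounds. The tissues overlapped throughout and Wnt2 was called in neither comparison on either scale. With median-ratio scaling and the replicate number as a block it was called higher in Act (0.96, adjusted p = 0.00651). That fit blocked the Act libraries by number too, although their correlations gave little ground for pairing them.

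Wnt16 read 1.25, 0.996 and 0.8103 RPKM in WT NS, 1.11, 0.752 and 1.09 in Act NS, 1.77, 1.64 and 1.25 in WT wounds and 2.29 and 1.57 in Act wounds. In Act every wound library was above every normal skin library, and the log2FC was 0.70 ± 0.20 (SE; adjusted p = 0.0152), but the call was lost without Act NS 2 (0.59, adjusted p = 0.052) or without Act 5dw 1 (0.49, adjusted p = 0.15). In WT the groups overlapped and the log2FC was 0.44 ± 0.18 (SE; adjusted p = 0.0572). Blocking the libraries of all groups on the replicate number gave the same log2FC of 0.44 with an adjusted p of 0.03. The WT value was also called higher with median-ratio scaling (0.75, adjusted p = 0.00824) and with limma-voom (0.62, adjusted p = 0.045), and the WT call was also reached without WT NS 1 (0.54) or WT 5dw 3 (0.55).

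On the mean over the normal skin libraries, Wnt5a (6.32 RPKM) and Wnt11 (6.35 RPKM) came next after Wnt2 (12.6 RPKM), and both fell. Wnt11, which acts mainly outside the beta-catenin branch (chr7:98835112-98855195, plus strand), read 10.1, 5.15 and 6.19 RPKM in WT NS, 4.29, 6.82 and 5.57 in Act NS, 0.828, 1.52 and 1.496 in WT wounds and 1.14 and 1.67 in Act wounds. No wound library exceeded 1.67 RPKM and no normal skin library was below 4.29 RPKM. Wnt11 fell with a log2FC of -2.07 ± 0.26 (SE; adjusted p = 9.82e-05) in WT and -1.66 ± 0.29 (SE; adjusted p = 0.0011) in Act. Its promoter is the one printed above with a TCF/LEF match. Of its transcript sequence, in 31-base words, 8.02% is shared with other genes, the gene model Gm8398 being the largest sharer.

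Wnt5a, the best known ligand of Ror2, read 8.06, 6.42 and 7.25 RPKM in WT NS, 4.76, 4.94 and 6.52 in Act NS, 3.56, 2.904 and 3.14 in WT wounds and 3.23 and 2.67 in Act wounds. Wound libraries were lower than all normal skin libraries, and the Act NS 1 and Act NS 2 libraries were the lowest of normal skin. Wnt5a fell with a log2FC of -1.06 ± 0.14 (SE; adjusted p = 1.74e-04) in WT and -0.77 ± 0.16 (SE; adjusted p = 0.00313) in Act, and its share of the Wnt sum went from 10.4 to 16.2% in NS to 6.21 to 9.87% in 5dw.

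Wnt10b and Wnt5b stood between. Wnt10b, a beta-catenin branch ligand known from hair growth and as a brake on fat cell formation, read 5.25, 2.83 and 3.42 RPKM in WT NS, 1.61, 2.99 and 2.46 in Act NS, 1.02, 1.73 and 0.806 in WT wounds and 1.52 and 0.9196 in Act wounds. Within each genotype the tissues did not overlap, but Act NS 1 was below WT 5dw 2. It fell in WT, with a log2FC of -1.36 ± 0.27 (SE; adjusted p = 0.00165). In Act the value was -0.72 ± 0.30 (SE; adjusted p = 0.0723), and it passed when Act NS 1, the lowest normal skin library, was left out (-0.92, adjusted p = 0.031). Wnt5b, a relative of Wnt5a, read 2.58, 1.96 and 3.601 RPKM in WT NS, 2.93, 2.14 and 3.74 in Act NS, 1.57, 1.29 and 1.29 in WT wounds and 1.03 and 1.46 in Act wounds. Every wound library was below every normal skin library. Its log2FC was -0.74 ± 0.21 (SE; adjusted p = 0.0122) in WT, not called with median-ratio scaling (-0.38) or without WT NS 3 (-0.55, adjusted p = 0.052), and -0.96 ± 0.24 (SE; adjusted p = 0.00753) in Act, not called without Act 5dw 1 (-0.79, adjusted p = 0.072).

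Wnt3, Wnt4, Wnt7b and Wnt10a are ligands that the epidermis and its hair follicles are known to make. Wnt3 read 2.11, 2.196 and 3.16 RPKM in WT NS, 1.44, 3.12 and 5.01 in Act NS, 0.0164, 0.0839 and 0.243 in WT wounds and 0.0633 and 0.0761 in Act wounds. It fell with a log2FC of -2.28 ± 0.32 (SE; adjusted p = 2.02e-04) in WT and -2.57 ± 0.35 (SE; adjusted p = 2.98e-04) in Act, on 1270 reads over the NS libraries and 51 over the wound libraries. Within normal skin it was highest in Act NS 3, and within wounds in WT 5dw 3.

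Wnt10a read 1.57, 1.56 and 2.06 RPKM in WT NS, 1.66, 1.88 and 2.98 in Act NS, 0.163, 0.2196 and 0.773 in WT wounds and 0.217 and 0.3004 in Act wounds. Wnt10a fell with a log2FC of -1.39 ± 0.26 (SE; adjusted p = 0.00108) in WT and -1.79 ± 0.29 (SE; adjusted p = 7.18e-04) in Act. Wnt7b read 0.629, 1.15 and 1.49 RPKM in WT NS, 0.549, 1.32 and 2.39 in Act NS, 0.103, 0.0994 and 0.1402 in WT wounds and 0.0773 and 0.0619 in Act wounds. The highest library of each tissue was again Act NS 3 and WT 5dw 3, for Wnt10a and for Wnt7b. Wnt7b fell with a log2FC of -1.33 ± 0.32 (SE; adjusted p = 0.00503) in WT and -1.63 ± 0.36 (SE; adjusted p = 0.0042) in Act.

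Wnt4 read 1.07, 1.56 and 1.97 RPKM in WT NS, 0.947, 1.9 and 2.36 in Act NS, 0.378, 0.302 and 1.44 in WT wounds and 0.406 and 0.326 in Act wounds. The wound library WT 5dw 3 lay within the range of normal skin. In Act, Wnt4 had a log2FC of -1.31 ± 0.38 (SE; adjusted p = 0.0172), which was lost without Act NS 3 (-1.11, adjusted p = 0.055), Act 5dw 1 (-1.38, adjusted p = 0.064) or Act 5dw 3 (-1.25, adjusted p = 0.095). In WT it was -0.85 ± 0.34 (SE; adjusted p = 0.0536), and the call was reached without WT NS 1 (-1.02), without Act NS 1 (-0.85, adjusted p = 0.036), without WT 5dw 3 (-1.25, adjusted p = 0.0058), with limma-voom (-1.45, adjusted p = 0.0309) and with the replicate number as a block (-0.85, adjusted p = 0.019). With median-ratio scaling it was not called in WT (-0.55).

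These 4 ligands and the keratinocyte transcripts shared some of their order over the libraries. The sum of the 14 keratinocyte markers was 1284, 2132 and 2363 RPKM in WT NS, 1320.4, 3129 and 4860.2 in Act NS, 176, 358 and 1548 in WT wounds and 395 and 473 in Act wounds. The highest library of each tissue, Act NS 3 and WT 5dw 3, was the highest for Wnt3, Wnt4, Wnt7b and Wnt10a too. The order was not the same throughout. WT 5dw 3 had a higher marker sum than WT NS 1 and Act NS 1. Its Wnt3, Wnt7b and Wnt10a levels were below theirs and its Wnt4 level above theirs. Ligands outside these 4 were not all highest in Act NS 3 and WT 5dw 3. Wnt10b, named above for hair growth, was highest in WT NS 1 (5.25 RPKM) and WT 5dw 2 (1.73 RPKM). The low Wnt6 was highest in WT NS 3 (1.04 RPKM) and Act 5dw 3 (0.125 RPKM). None of the 14 markers was at 0 throughout. The sum of 13 hair follicle epithelium markers was 49.6 to 200.9 RPKM in NS and 12.9 to 19.2 RPKM in 5dw, with every normal skin library above every wound library and the highest again Act NS 3 and WT 5dw 3. The mean of 12 of the 13 was higher in NS. For 3 of the 13 every NS library was above every wound library, while 47.3% of all tested genes did not overlap in either direction. Only 3 of the 13 reached the test, of which 1 fell and 1 rose in WT and 1 fell in Act under both scalings. The part that keratinocyte or hair follicle RNA plays in the level of these ligands was not tested.

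**Figure D3:**
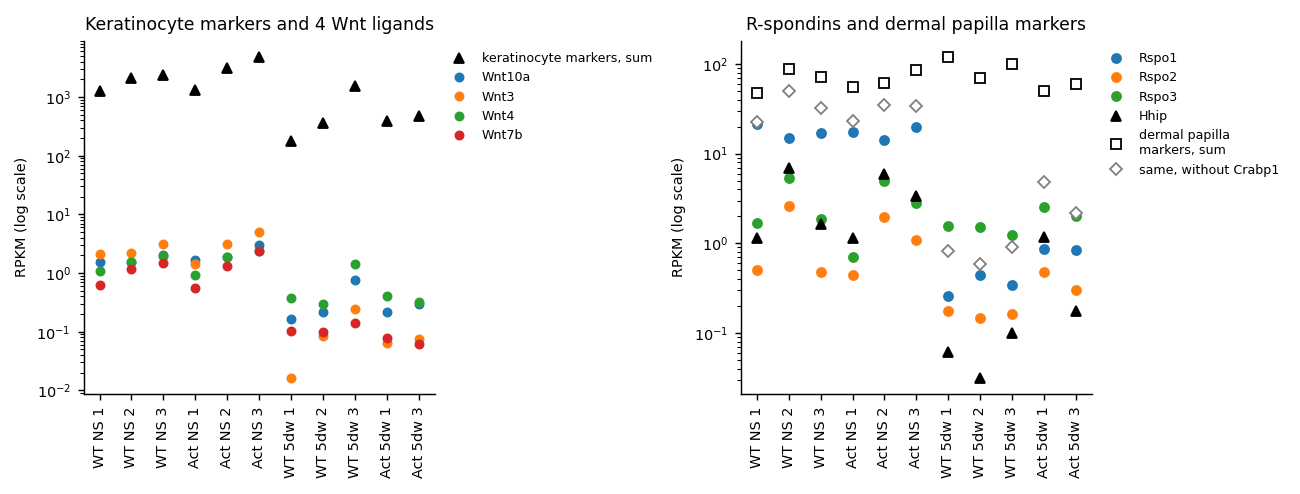
Left: summed RPKM of 14 keratinocyte markers (triangles) and the RPKM of Wnt3, Wnt4, Wnt7b and Wnt10a (circles) in each library, on a log axis; the highest wound library for each is WT 5dw 3. Right: RPKM of Rspo1, Rspo2, Rspo3 and, among 10 dermal papilla markers, of Hhip (triangles) of the sum of all 10 (open squares) and of the sum without Crabp1 (diamonds), on a log axis; Rspo2, Rspo3 and Hhip are highest among the normal skin libraries in WT NS 2, Act NS 2 and Act NS 3, while Rspo1 and the sum of the 10 are not.

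The Frizzled receptors changed in both directions. Their sum overlapped between tissues (42.4 to 72.7 RPKM in NS and 47.0 to 55.3 RPKM in 5dw), and Fzd1 led in all 11 libraries, with 29.8 to 37.6% of the sum in NS and 39.1 to 46.1% in 5dw. Fzd1 read 24.7, 12.6 and 24.9 RPKM in WT NS, 23.9, 18.2 and 19.03 in Act NS, 25.3, 21.4 and 21.6 in WT wounds and 19.9 and 21 in Act wounds. The groups overlapped, and Fzd1 was not called on the deposited scale, while with median-ratio scaling it was called higher in WT (0.64). Fzd2 (5.02 to 14.4 RPKM), Fzd8 (2.63 to 4.59 RPKM) and Fzd6 (0.95 to 1.92 RPKM) also overlapped between tissues and were called on neither scale.

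Fzd4, the receptor also known for binding the non-Wnt ligand norrin, read 9.63, 7.11 and 10.6 RPKM in WT NS, 10.6, 9.999 and 6.89 in Act NS, 2.23, 2.54 and 2.12 in WT wounds and 2.55 and 2.08 in Act wounds. It fell with a log2FC of -1.77 ± 0.18 (SE; adjusted p = 3.16e-05) in WT and -1.76 ± 0.20 (SE; adjusted p = 9.94e-05) in Act. Fzd7 read 10.4, 7.34 and 10.4 RPKM in WT NS, 9.41, 6.73 and 8.65 in Act NS, 3.65, 3.902 and 4.22 in WT wounds and 4.46 and 4.07 in Act wounds. The wound libraries were below all normal skin libraries for Fzd4 and for Fzd7. Fzd7 fell with a log2FC of -1.15 ± 0.16 (SE; adjusted p = 2.09e-04) in WT and -0.87 ± 0.18 (SE; adjusted p = 0.00294) in Act. With median-ratio scaling the Act value was -0.54 (adjusted p = 0.0423), and this call was lost when limma-voom was used with that scaling (-0.58, adjusted p = 0.0521) or both NS libraries numbered 1 were left out (-0.37, adjusted p = 0.0919).

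Fzd10 was a receptor of low level in every library. It read 2.04, 1.47 and 3.48 RPKM in WT NS, 0.9901, 1.49 and 2.02 in Act NS, 0.256, 0.2303 and 0.436 in WT wounds and 0.465 and 0.276 in Act wounds. Fzd10 fell with a log2FC of -1.75 ± 0.27 (SE; adjusted p = 3.41e-04) in WT. In Act it was -1.18 ± 0.30 (SE; adjusted p = 0.00826), not called without Act 5dw 3 (-1.02, adjusted p = 0.074).

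Fzd5 (chr1:64730558-64737751, minus strand) was the 1 tested Frizzled receptor called higher in both genotypes under both scalings. It read 4.11, 3.68 and 3.09 RPKM in WT NS, 2.89, 4.13 and 3.85 in Act NS, 7.79, 7.19 and 9.597 in WT wounds and 7.21 and 8.58 in Act wounds. Every wound library was above every normal skin library, and Fzd5 moved from rank 5 to 7 among the Frizzled receptors in NS to rank 3 in all 5 wound libraries. Fzd5 rose with a log2FC of 1.07 ± 0.16 (SE; adjusted p = 3.10e-04) in WT and 1.03 ± 0.18 (SE; adjusted p = 0.00112) in Act. Of its 31-base words, 17.2% are shared with other genes. The largest sharer was the antisense gene model Gm38058, which did not exceed 0.0285 RPKM.

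For the co-receptors and Lgr4 the calls turned on the scale or on single libraries, and none was called under both scalings. Lrp6 had 9.88 to 11.4 RPKM in NS and 6.44 to 8.11 RPKM in 5dw. Ror1 had 2.64 to 2.95 RPKM in NS and 1.77 to 2.11 RPKM in 5dw. Lgr4, the receptor for R-spondins, had 4.78 to 5.89 RPKM in NS and 2.88 to 4.33 RPKM in 5dw. For these 3 genes the tissues did not overlap, and the call depended on the scale. On the deposited scale the log2FC lay between -0.64 and -0.46 in both genotypes and passed the test, and with median-ratio scaling it lay between -0.23 and -0.03 and did not. In Act, Lgr4 was also not called without Act NS 2 (-0.45) or Act 5dw 3 (-0.26), nor were Lrp6 (-0.40) and Ror1 (-0.38) without Act 5dw 3. Lrp5 read 6.43, 4.81 and 6.01 RPKM in WT NS, 7.304, 7.39 and 7.86 in Act NS, 5.05, 4.42 and 5.16 in WT wounds and 4.25 and 5.802 in Act wounds. In WT its log2FC was -0.21 ± 0.14 (SE; adjusted p = 0.215). In Act it was -0.55 ± 0.16 (SE; adjusted p = 0.0152), a call that was lost with median-ratio scaling (-0.22) and without Act 5dw 1 (-0.35, adjusted p = 0.16). Ror2 read 9.26, 6.36 and 11.7 RPKM in WT NS, 6.71, 6.69 and 8.17 in Act NS, 10.97, 9 and 9.97 in WT wounds and 7.52 and 9.97 in Act wounds. Its tissues overlapped, and it was called higher with median-ratio scaling only (0.59 in WT and 0.60 in Act).

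**Figure D4:**
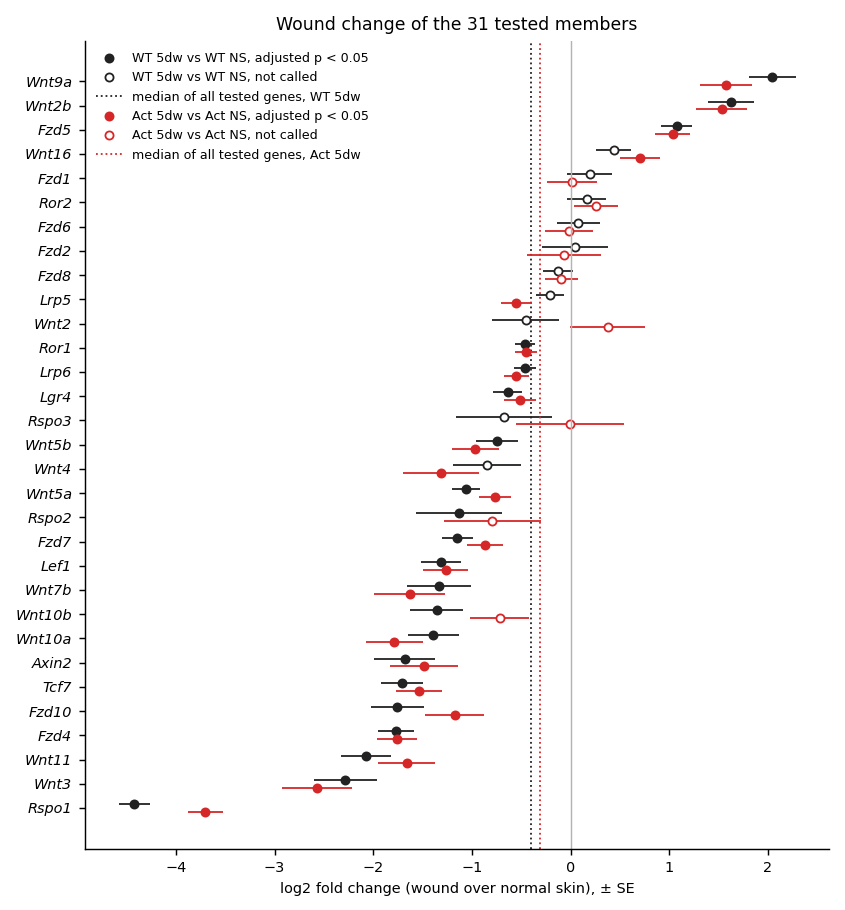
log2FC ± SE of the 31 tested members in WT 5dw vs WT NS (black) and Act 5dw vs Act NS (red), ordered by the WT value; filled circles passed an adjusted p of 0.05 on the deposited scale and dotted lines mark the median of all tested genes (-0.40 and -0.31). On this scale Rspo1 is lowest and Wnt9a highest in both genotypes.

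The 3 members that act inside the cell all fell. Axin2 (chr11:108920349-108950783, plus strand) read 5.83, 2.37 and 4.49 RPKM in WT NS, 3.63, 1.73 and 4.08 in Act NS, 0.965, 0.713 and 1.04 in WT wounds and 0.734 and 0.751 in Act wounds. The wound libraries lay below all normal skin libraries. Axin2 fell with a log2FC of -1.68 ± 0.31 (SE; adjusted p = 0.001) in WT and -1.49 ± 0.34 (SE; adjusted p = 0.00519) in Act, where limma-voom with median-ratio scaling lost the call (-1.61, adjusted p = 0.0557). Tcf7 read 1.72, 0.838 and 1.88 RPKM in WT NS, 1.23, 0.9803 and 1.16 in Act NS, 0.115, 0.0492 and 0.0982 in WT wounds and 0.0557 and 0.0595 in Act wounds. It fell with a log2FC of -1.71 ± 0.21 (SE; adjusted p = 1.01e-04) in WT and -1.54 ± 0.24 (SE; adjusted p = 5.69e-04) in Act. Lef1 read 0.6496, 1.06 and 0.674 RPKM in WT NS, 0.642, 0.746 and 1.22 in Act NS, 0.00573, 0.0147 and 0.0264 in WT wounds and 0.06097 and 0.0577 in Act wounds. Lef1 was low in normal skin and close to 0 in wounds, on 1033 reads over the NS libraries and 40 over the wound libraries, and fell with a log2FC of -1.31 ± 0.20 (SE; adjusted p = 3.49e-04) in WT and -1.27 ± 0.22 (SE; adjusted p = 0.00124) in Act. Of the Lef1 sequence, 14.7% is shared with other genes. The largest sharer was the gene model Gm43352, which did not exceed 0.14 RPKM.

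The other genes of the pathway were taken from 6 lists. Of all tested genes, 22.2% fell and 9.45% rose under both scalings in WT, and 20.8% and 9.04% in Act. Of 13 Wnt response genes, 11 were tested, and in WT and in Act 6 fell (54.5%) and 1 rose (9.09%) under both scalings. Apcdd1, a Wnt inhibitor at the cell surface, had 51.96 to 115 RPKM in NS and 8.92 to 11.6 RPKM in 5dw (in WT log2FC -3.07 ± 0.27 SE, adjusted p = 1.18e-05). Notum, which removes the lipid from Wnt ligands, had 3.95 to 7.36 RPKM in NS and 0.139 to 0.195 RPKM in 5dw (in WT log2FC -3.03 ± 0.20 SE, adjusted p = 1.94e-06). Wisp1, a secreted matricellular protein, rose and had 1.25 to 2.68 RPKM in NS and 16.1 to 23.2 RPKM in 5dw (in WT log2FC 3.04 ± 0.20 SE, adjusted p = 2.02e-06). The list therefore held genes that moved in opposite directions. Znrf3, a ligase that removes Frizzled receptors and the called gene with the smallest fall, had 0.911 to 1.53 RPKM in NS and 0.553 to 0.662 RPKM in 5dw and was called on the deposited scale only. The median log2FC of the list in WT was -2.09, and -1.71 with median-ratio scaling.

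Among 13 nuclear factors, all tested, 6 fell under both scalings in WT (46.2%, against 22.2% of all genes) and 5 in Act (38.5%, against 20.8%), and none rose. Tle4, a co-repressor, had 3.41 to 6.32 RPKM in NS and 0.5803 to 1.11 RPKM in 5dw (log2FC -1.88 ± 0.20 SE, adjusted p = 4.13e-05), and Tcf7l1, a mostly repressive TCF, had 15.3 to 18.8 RPKM in NS and 4.51 to 5.05 RPKM in 5dw (log2FC -1.70 ± 0.11 SE, adjusted p = 1.83e-06). The smallest falls called in WT were those of Pygo1 (log2FC -0.37 ± 0.12 SE, adjusted p = 0.0237) and Tle2 (log2FC -0.45 ± 0.17 SE, adjusted p = 0.0386), neither of them called with median-ratio scaling. The median of the list in WT was -0.74, and -0.355 with median-ratio scaling.

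Of 15 other receptors and planar cell polarity genes, 14 were tested, 5 fell in WT (35.7%, against 22.2% of all genes) and 7 in Act (50%, against 20.8%) under both scalings, and 1 rose in each (7.14%). The 1 that rose was Ptk7, a Wnt co-receptor of the planar cell polarity branch, with 5.68 to 9.01 RPKM in NS and 13.8 to 26.3 RPKM in 5dw (log2FC 1.55 ± 0.23 SE, adjusted p = 3.23e-04). Gpc3, a heparan sulphate proteoglycan, fell, with 218 to 355 RPKM in NS and 83.5 to 130.4 RPKM in 5dw (log2FC -1.52 ± 0.22 SE, adjusted p = 2.55e-04), as did Celsr2 (log2FC -1.52 ± 0.32 SE, adjusted p = 0.00218), a cadherin of planar cell polarity. The smallest fall called in WT was that of Vangl2, a core protein of planar cell polarity (log2FC -0.52 ± 0.14 SE, adjusted p = 0.00876), which was not called with median-ratio scaling. The list's median in WT was -0.60, and -0.22 with median-ratio scaling.

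Of 14 cytosolic transducers, 13 were tested and 3 fell under both scalings in WT (23.1%, against 22.2% of all genes) and 2 in Act (15.4%, against 20.8%), shares near or below those of all genes. Gsk3a, a kinase of the beta-catenin destruction complex, fell, with 35.6 to 49.4 RPKM in NS and 18.8 to 23.03 RPKM in 5dw (log2FC -1.0 ± 0.15 SE, adjusted p = 3.00e-04), and in WT so did Axin1, the scaffold of the complex, with 8.87 to 13.3 RPKM in NS and 6.41 to 7.38 RPKM in 5dw (log2FC -0.83 ± 0.14 SE, adjusted p = 6.40e-04). The smallest falls called in WT were those of Gsk3b (log2FC -0.34 ± 0.11 SE, adjusted p = 0.0216) and Csnk1a1 (log2FC -0.47 ± 0.18 SE, adjusted p = 0.0434), neither called with median-ratio scaling. Of the 4 R-spondin receptors and ligases beside Lgr4, 3 were tested and none was called under both scalings, Lgr6 (log2FC -0.80 ± 0.26 SE, adjusted p = 0.0217) and Znrf3 (log2FC -0.62 ± 0.16 SE, adjusted p = 0.00684) being called lower in WT on the deposited scale. Of 4 genes of Wnt secretion and extracellular processing, Notum fell in both genotypes, Tmed5, a cargo carrier, was called lower in WT on the deposited scale (log2FC -0.83 ± 0.25 SE, adjusted p = 0.0153), and Porcn, which attaches the lipid to Wnt ligands, had 2.34 to 3.06 RPKM in NS and 3.09 to 5.36 RPKM in 5dw and was called higher in WT on both scales (log2FC 0.50 ± 0.17 SE, adjusted p = 0.0284) and not in Act (log2FC 0.17 ± 0.19 SE, adjusted p = 0.491). Wls, which carries Wnt ligands to the cell surface, had 22.4 to 29.3 RPKM in NS and 29.4 to 38.9 RPKM in 5dw, was called higher in Act on both scales (log2FC 0.51 ± 0.15 SE, adjusted p = 0.0173) and in WT with median-ratio scaling only (0.66, adjusted p = 0.00257).

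The 10 members below the test threshold were Fzd3, Fzd9, Rspo4, Wnt1, Wnt3a, Wnt6, Wnt7a, Wnt8a, Wnt8b and Wnt9b. Wnt8b had no read in any library. Wnt1 (highest 0.152 RPKM), Wnt3a (0.159 RPKM), Wnt7a (0.05 RPKM), Wnt8a (0.0447 RPKM) and Wnt9b (0.313 RPKM) were at the limit of detection in most libraries, and Fzd3 was at 0.482 to 0.906 RPKM. Wnt6 had 0.44 to 1.04 RPKM in NS and 0.0222 to 0.125 RPKM in 5dw. In a fit with no filter on low values, Wnt6 (log2FC -1.15, adjusted p = 0.00107) and Rspo4 (-1.23, adjusted p = 7.46e-04) were called lower in WT wounds, and both were called lower in Act wounds (-1.29 and -1.03). That fit called 24.9% of all genes lower in WT, and 17.5% lower and 5.31% higher in Act. It also called Fzd9 (0.43, adjusted p = 0.00196) and Wnt8a (0.10, adjusted p = 0.0136) higher in Act wounds, Wnt8a on 4 reads over all wound libraries and 0 over all NS libraries, and Fzd9 on 29 reads over the NS and 68 over the wound libraries.

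No member differed between Act and WT at the threshold. In Act NS vs WT NS, limma called 0 of the 31 members, against 0.0167% of all tested genes, and limma-voom on the recovered reads also called 0. At an unadjusted p under 0.05 there were 2 members (6.45%, against 6.88% of all genes), namely Wnt5a (log2FC -0.40 ± 0.14, adjusted p = 0.684) and Lrp5 (0.37 ± 0.14, adjusted p = 0.688). Lrp5 was higher in each Act NS library than in any WT NS library. It was the 1 tested member whose groups did not overlap (3.23%, against 8.97% of all genes), while for Wnt5a the groups overlapped. Below the test threshold, Fzd9, Wnt1 and Wnt3a were lower in each Act NS library than in any WT NS library, on few reads.

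In Act 5dw vs WT 5dw, limma called 0 members, against 0.0334% of all genes, and limma-voom called 0. The 1 member with an unadjusted p under 0.05 (3.23%, against 3.22% of all genes) was Rspo1, whose residual level was higher in 2 of 2 Act wound libraries than in 3 of 3 WT wound libraries, with a mean of 0.8501 ± 0.00623 RPKM (SD, n = 2) against 0.348 ± 0.0898 RPKM (SD, n = 3). The log2FC was 0.68 ± 0.17 (adjusted p = 0.661), which does not pass. In all, the 2 Act wound libraries did not overlap the 3 WT ones for 8 of the 31 members (25.8%, against 23% of all genes), a share near that of all genes. Of these, Rspo1, Rspo2 (log2FC 0.43 ± 0.49), Rspo3 (0.51 ± 0.55) and Lef1 were higher in Act and Fzd1, Fzd8, Wnt7b and Wnt9a lower. The interaction of wounding and genotype was called for 0 members and for 0% of all genes by limma and by limma-voom. At an unadjusted p under 0.05 it held 1 member against 3.34% of all genes, again Rspo1 (0.72 ± 0.23, adjusted p = 0.999).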

How the data were processed

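RNA of sorted fibroblasts was sequenced after poly-A enrichment in 11 libraries. Per the labels and the study's methods, the authors aligned reads to GRCm38 in CLC Genomics Workbench and deposited gene-level RPKM, reads scaled to transcript length and to mapped reads; per the labels they used edgeR for their own comparisons. The strand setting of their counting is stated neither there nor in the labels, so reads of a member and of an antisense gene model cannot be told apart.

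RPKM are not counts, so log2(RPKM + 0.5) was fitted with limma 3.58.1 (R 4.3.3; trended variance; 1 mean per group over all 11 libraries; 7 residual degrees of freedom), on the 11979 genes with at least 1 RPKM in at least 2 libraries. P-values were adjusted over all of them by Benjamini-Hochberg, with a threshold of 0.05. The libraries are pools of animals, and p-values measure the spread between pools. Whole reads were recovered from the RPKM steps for 11959 of the 11979 tested genes (tolerance 0.03 reads), which gave the depth of 18649321 to 39702138 mapped reads per library and a limma-voom alternative. On data simulated with the real means, limma found 74% of genes changed 2-fold and 98.5% of those changed 4-fold in WT 5dw vs WT NS, and 61% and 92% in Act 5dw vs WT 5dw.

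Libraries of the same number deviated together between WT NS and Act NS (correlation of deviations 0.334 to 0.554) and between WT NS and WT 5dw (0.109 to 0.188), so that a fit with the replicate number as a block was made beside the unblocked one. With 2 pairs each, the Act NS and Act 5dw (0.019 to 0.143) and the WT 5dw and Act 5dw libraries (-0.078 to 0.189) gave little ground for pairing. The blocked fit still held the Act libraries by number, so its Act values rest on that pairing too. Every member is accounted for. From each other pathway list, the 2 called genes with the largest and the 2 with the smallest log2FC in WT 5dw vs WT NS are named. The members and lists were chosen with earlier results of these data known. Alternatives were the pseudocount, the filter, median-ratio scaling, no variance trend, the replicate block, the groups compared alone, limma-voom and leaving out each library. Shared sequence was the share of a gene's 31-base words found in another gene of GENCODE M21, from which gene positions (GRCm38) were also taken.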

Additional observations from a re-analysis of the deposited data

Results flagged for a closer look

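Fzd9, a low Frizzled receptor below the test threshold, lay in opposite directions between Act and WT in the 2 tissues. All 3 Act NS libraries were below all 3 WT NS libraries (difference of means -0.0822 RPKM), and both Act 5dw libraries were above all 3 WT 5dw libraries (0.0737 RPKM). The values rest on 1 to 17 reads per library. In the fit with no filter on low values Fzd9 was called higher in Act 5dw vs Act NS (0.43, adjusted p = 0.00196), and the interaction was 0.36 (limma, adjusted p = 0.684), which does not pass.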

How the results depend on the processing

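The count of members called changed with the scaling, the filter and the library left out. In WT 5dw vs WT NS, 3 members were called higher, and 6 with median-ratio scaling (against 22.4% of all genes), 6 with the replicate block and median-ratio scaling (24%), 6 with limma-voom and median-ratio scaling (22.9%), and 7 with that scaling and both NS libraries numbered 1 left out (21.1%), of 31 members tested each time. With the replicate block alone, 4 were higher and 19 lower (against 10.2% and 50.9% of all genes). The stricter filter of 5 RPKM, which tests fewer genes and kept 14 members, gave 7 members lower in WT (against 46.6% of all genes), and 8 lower (36.4%) and 2 higher (10.6%) in Act. Limma-voom with median-ratio scaling called 10 of 31 members lower in Act (against 17.9% of all genes); the cause was not tested. The 2 settings that join another choice to median-ratio scaling beyond the block were added after seeing the data. Leaving out 1 library gave 3 to 4 members higher and 17 to 19 lower in WT, and 3 to 4 higher and 13 to 19 lower in Act, the 13 being without Act 5dw 3 (against 7.76 to 10.1% and 40.4 to 51.3% of all genes in WT, and 5.55 to 9.5% and 23.7 to 41.2% in Act), and 0 members in the genotype comparisons and the interaction, where every alternative gave 0.

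Lrp5 in WT 5dw vs WT NS reversed to 0.21 with median-ratio scaling, alone and with the replicate block, and, in each case together with that scaling, to 0.23 with limma-voom and to 0.30 without both NS libraries numbered 1; the scaling itself adds the shift of all genes. Fzd1 in Act reversed to -0.13 with the replicate block. Leaving out 1 library, Fzd1 ranged from -0.12 to 0.35 in WT and from -0.060 to 0.13 in Act, and Ror2 from -0.062 to 0.35 in WT. Fzd2 ranged from -0.42 to 0.29 in WT and from -0.32 to 0.19 in Act. Fzd6 ranged from -0.13 to 0.23 in WT and from -0.24 to 0.20 in Act, and Rspo3 from -0.62 to 0.47 in Act. None of these was called on the deposited scale. Of 43 single-member calls in the wound comparisons, 28 held in every alternative that could be fitted. On the deposited scale the blocked fit changed the calls of Wnt4 and Wnt16 in WT and of no other member in the wound comparisons. With median-ratio scaling it changed those of Rspo2 in WT (-0.94, adjusted p = 0.0406, from 0.0968) and Wnt2 in Act (0.96, adjusted p = 0.00651, from 0.153). Against median-ratio scaling alone, limma-voom with that scaling lost the calls of Axin2, Fzd7, Wnt4 and Wnt5b in Act, and leaving out both NS libraries numbered 1 with that scaling lost those of Fzd7, Ror2 and Wnt5b in Act and called Fzd8 higher in WT (0.39, adjusted p = 0.0454). Depth limits the lowest members, such as Wnt1 with 11 reads over the NS and 38 over the wound libraries.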
